A study of Mus musculus with 9 samples.

Results

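Nuclear receptors are transcription factors that bind a small lipid-soluble ligand and then change the transcription of their target genes. In the liver they carry the state of fat, bile acid, drug and hormone supply to the genes of metabolism, and many of them bind DNA only as a pair with a retinoid X receptor. The 9 genes described here encode such receptors: Rxra, Ppara, Nr1h3, Nr5a2, Nr1i2, Nr1i3, Nr3c1, Thrb and Esr1. They were chosen by name from a table of 33732 gene names, and all 9 had exon lines in it.

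The values come from RNA immunoprecipitation and sequencing (RIP-seq), in which RNA held by a protein is pulled down with an antibody and sequenced. Each pull-down was done under native conditions on the lysate of 1 liver from a wild-type C57BL/6 mouse aged 8 weeks, and no other treatment is named in the labels. There were 3 HuR RIP libraries, made with an antibody against HuR, 3 IgG RIP libraries, made with control IgG, and 3 Input libraries of lysate RNA, which the table gives only as a mean. HuR, encoded by Elavl1, is a protein of the ELAV family that holds on to stretches of U and of A and U, mostly in introns and in the 3' untranslated regions (3' UTRs) of mRNAs, and is known for slowing the decay of many mRNAs that it holds. The comparison of HuR RIP with IgG RIP asks whether the receptor mRNAs were held by HuR more than by an unrelated antibody, and the Input mean gives their level in the lysate.

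The library sizes behind the values were 26.6, 26.3 and 26.9 M reads across HuR RIP, and 15.9, 26.7 and 28.8 M reads across IgG RIP. The depth of the Input mean is unknown. Where 3 values are given for a group, they are those of replicates 1, 2 and 3 in this order. Markers of hepatocytes, the main cell of the liver, summed to between 729 and 834 RPKM in HuR RIP, between 266 and 690 RPKM in IgG RIP, and 717 RPKM in the Input mean. RPKM are reads per kilobase of exon and per mega (M) reads of the library. The 5 markers of bile duct cells summed to between 3.78 and 13.1 RPKM in HuR RIP, between 0.0343 and 0.662 RPKM in IgG RIP, and 0.448 RPKM in the Input mean. The markers of Kupffer cells, endothelium and stellate cells each summed to under 7 RPKM in every library, and those of blood to between 25.3 and 85.2 RPKM in HuR RIP, between 44.1 and 129 RPKM in IgG RIP, and 36.5 RPKM in the Input mean. The part of these markers in the results below was not tested. Since a liver is a mixture, fewer cells of a type and less RNA per cell cannot be told apart.

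The table's column names carry a letter M or F beside the replicate number, and for a pair of HuR libraries these letters went against the sex-linked genes. The library headed HuR 2 (M) held 4791 reads of Xist, the RNA of the inactive X chromosome, and 0 to 4 reads of each of the Y-linked genes Ddx3y, Uty, Kdm5d and Eif2s3y. The library headed HuR 3 (F) held 223 reads of Xist and 68 to 221 reads of each of the 4 Y-linked genes. HuR 2 and HuR 3 are therefore named by column header only, and an exchange of these names would leave each comparison of HuR RIP with IgG RIP as it is, since both are HuR libraries.

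Because HuR is known to bind runs of U, the stretch of 30 bases with the most T was taken from the longest annotated 3' UTR of each gene (GENCODE M21, GRCm38, strand of the mRNA). The 6 stretches below have 17 to 25 T. Those of Nr1h3 and Nr1i2, with 12 T each and 0 matches to the motifs in capitals, and that of Nr3c1 are not printed. Capitals mark matches to TTTTTTT or ATTTA, which are searched on the mRNA strand and may overlap themselves.
Thrb, chr14:18034321-18034350 (+): gtcTTTTTTTTTTTTTTTTTTTTTcagtat
Esr1, chr10:5003402-5003431 (+): atATTTAgtttgTTTTTTTTTTTTTTTTTT
Nr1i3, chr1:171219121-171219150 (+): ggcTTTTTTTTTTctgctccctctttccat
Nr5a2, chr1:136843973-136844002 (-): atgttatttttctggttagtaattattttt
Ppara, chr15:85802382-85802411 (+): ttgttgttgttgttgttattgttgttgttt
Rxra, chr2:27761686-27761715 (+): ggtgattgtaattattattgttattatttt
Thrb and Esr1 carry long unbroken runs of T, Nr1i3 a shorter one, and the stretches of Ppara and Rxra are broken up by G or A. Over the whole 3' UTR, Thrb had 18 overlapping matches to TTTTTTT in 4424 bases, Esr1 14 in 4191 bases, Nr1i3 4 in 1983 bases and Nr5a2 3 in 2892 bases. The other 5 genes had 0 matches. Since matches may overlap, the long runs printed above hold most of those of Thrb and Esr1. Genes with a 3' UTR of 0.8 to 1.25 times the length had medians of 7 matches for Thrb and for Esr1, 2 for Nr1i3 and 4 for Nr5a2. The medians were 1 for Ppara, and 0 for Nr1h3 and for Nr1i2. Rxra differed from most genes with a 3' UTR of 0.8 to 1.25 times its length: its 3269 bases held 0 matches to TTTTTTT, which 83.6% of the 499 like genes had, and 1 to ATTTA, against a median of 5. Nr3c1, whose 3' UTR of 3937 bases was not printed, had 0 matches to TTTTTTT and 10 to ATTTA, where 416 genes of like length had medians of 6 and 7. A match is a description of the letters and not of a bound site.

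None of the 9 receptors passed the test of HuR RIP against IgG RIP, and 4 of them nevertheless had every HuR library above every IgG library: Rxra, Nr1i3, Nr3c1 and Thrb. By limma on log2(RPKM + 0.5), 0 of the 8 receptors tested were past an adjusted p of 0.05, with 2 of them, Nr3c1 and Thrb, past it before adjustment. Thrb passed the filter of 0.5 RPKM in 3 libraries only through its 3 HuR libraries, as did 10.3% of tested genes. The filter thus set its direction and fixed its separation, and its p-values support no difference. Among all 5510 genes tested, 0.672% were called higher in HuR RIP and 0.127% lower, and 27.9% were higher and 3.19% lower without adjustment. In 31.3% of all tested genes, and in 38.9% of protein-coding ones, every HuR library was above every IgG library, so that 4 of 9 lies close to the background. The reverse, every HuR library below every IgG library, was seen in 0 of the 9 and in 3.48% of all tested genes. These shares are of tested genes, and Esr1 was not tested. The filter alone fixed the first order in 10.3% of tested genes and the reverse in 0.417%. With 3 libraries against 3, an exact two-sided permutation test of a single gene cannot go below p = 0.1. The labels name 1 liver per pull-down, and whether a HuR and an IgG library with the same number share a liver is not stated.

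Most genes lay higher in HuR RIP on the deposited scale. The median log2 fold change over all tested genes was 0.92, with 79.1% above 0. The 8 tested receptors were all above 0, with a median of 0.85, and 4 of them were above the median of all genes, against 58.4% of protein-coding genes. When each library was centred at its median gene, Nr3c1, Thrb and Nr1i3 kept a positive log2 fold change, and Rxra, Nr1i2, Nr5a2, Ppara and Nr1h3 had a negative one. Thrb had passed the filter only through its HuR libraries, so its sign supports no difference. Esr1 was not tested, since only 1 of the 6 RIP libraries reached 0.5 RPKM.

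**Figure D1:**
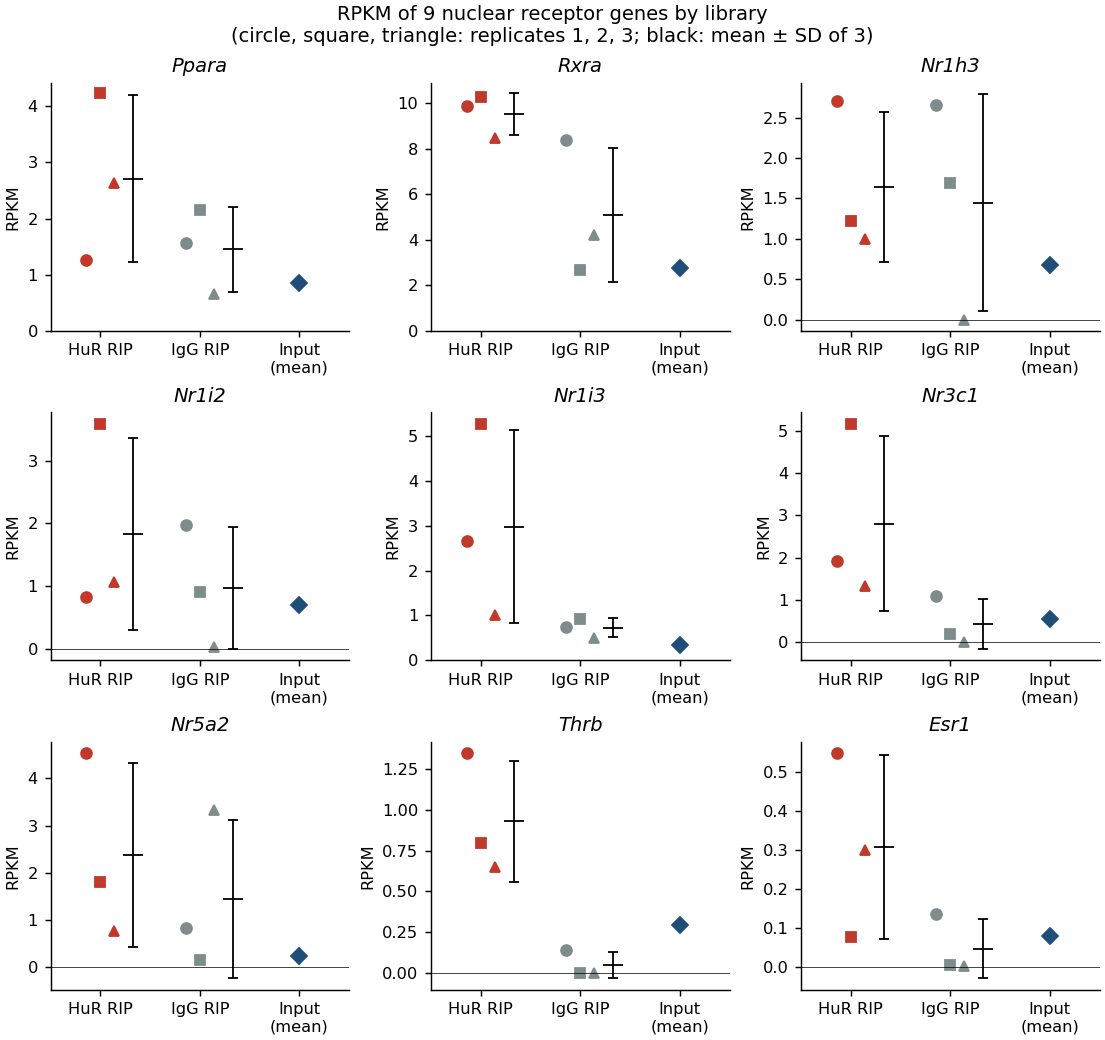
RPKM of the 9 receptor genes (vertical axes, each with its own scale) in the 3 HuR RIP libraries, the 3 IgG RIP libraries and the Input mean, with the mean ± SD of each group of 3. In Rxra, Nr1i3, Nr3c1 and Thrb every HuR library lay above every IgG library, and in the other 5 genes the groups overlap.

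Rxra encodes the retinoid X receptor alpha, the partner with which Ppara, Nr1h3, Nr1i2, Nr1i3 and Thrb products bind DNA. Its level was 9.86, 10.2 and 8.46 RPKM across HuR RIP, 8.36, 2.67 and 4.22 RPKM across IgG RIP, and 2.77 RPKM in Input. Rxra was the highest of the 9 in all 3 kinds of library, the HuR values were close together, and the groups were separated only by the small gap between HuR 3 and IgG 1. It had a log2 fold change of 0.97, with an SE of 0.83 and an adjusted p of 0.402, near the median of all genes, and -0.13 with centred libraries. These values rest on 1244 to 1473 reads per HuR library and 389 to 724 per IgG library.

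The lipid sensors overlapped between the groups. Ppara encodes the receptor that switches on fatty acid oxidation and ketone body formation in the fasted liver. Its level was 1.26, 4.24 and 2.63 RPKM across HuR RIP, 1.56, 2.16 and 0.649 RPKM across IgG RIP, and 0.855 RPKM in Input. HuR 1 lay below IgG 1 and IgG 2, and the log2 fold change of 0.69 had an SE of 0.76 and an adjusted p of 0.514. Nr1h3 encodes the liver X receptor alpha, which responds to oxysterols and drives sterol export and fatty acid synthesis. Its level was 2.71, 1.22 and 0.996 RPKM across HuR RIP, 2.65, 1.69 and 0 RPKM across IgG RIP, and 0.680 RPKM in Input. The 0 reads in IgG 3 allow up to 0.0429 RPKM (3 reads, counting error only). HuR 1 and IgG 1 were level with each other, and the log2 fold change of 0.42 (SE 0.78, adjusted p = 0.702) turned to -0.38 without IgG 3. Nr5a2 encodes LRH-1, a regulator of bile acid synthesis. Its level was 4.53, 1.81 and 0.763 RPKM across HuR RIP, 0.830, 0.165 and 3.34 RPKM across IgG RIP, and 0.250 RPKM in Input. One IgG library, IgG 3, was above HuR 2 and HuR 3, and 459 of its 548 reads lay in a single exon (chr1:136948722-136949562). The log2 fold change of 0.71 had an SE of 0.80 and an adjusted p of 0.522.

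Of the sensors of foreign compounds, Nr1i2 encodes the pregnane X receptor and Nr1i3 the constitutive androstane receptor, both of which induce drug-metabolizing enzymes. The level of Nr1i2 was 0.824, 3.59 and 1.08 RPKM across HuR RIP, 1.98, 0.911 and 0.0408 RPKM across IgG RIP, and 0.703 RPKM in Input. HuR 2 and IgG 1 were the highest of their groups, which overlapped, and the log2 fold change of 0.72 had an SE of 0.75 and an adjusted p of 0.483. The level of Nr1i3 was 2.66, 5.28 and 0.999 RPKM across HuR RIP, 0.742, 0.927 and 0.504 RPKM across IgG RIP, and 0.335 RPKM in Input. All 3 HuR values were above the IgG values, with HuR 3 close to IgG 2, and the log2 fold change of 1.31 had an SE of 0.74 and an adjusted p of 0.219.

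The Nr1i3 values cannot be assigned to Nr1i3 alone. Its last merged exon (chr1:171217076-171220701) shares 82.6% of its bases with exons of Tomm40l, a gene of the opposite strand for a mitochondrial import protein, and its exon 4 lies wholly within them. It held 302, 593 and 112 reads across HuR RIP, against 30.2, 36.6 and 43.2 reads across IgG RIP. Reads in the shared stretch, in which the run of T printed above also lies, were divided between both genes in the table, so that the strands were not kept apart there. In exons 1 to 3 of Nr1i3, which share no base with Tomm40l, there were 0, 1 and 0 reads across HuR RIP, against 12, 69 and 19 reads across IgG RIP. In the 3 Tomm40l exons beyond Nr1i3 there were 0, 218 and 50 reads across HuR RIP, against 0 reads in each of IgG 1, 2 and 3. Exons 1 to 3 of Nr1i3 thus went against its gene value, and the 3 Tomm40l exons held reads in HuR 2 and HuR 3 only. The bases of the last merged exon of Nr1i3 that are not shared with Tomm40l were not counted apart. Tomm40l as a whole averaged 3.65 ± 3.80 RPKM in HuR RIP, compared with 0.323 ± 0.121 RPKM for IgG (SD, n = 3 each), or 1.97 as a log2 fold change (adjusted p = 0.0981).

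The hormone receptors Nr3c1 and Thrb had the highest log2 fold changes of the 8 tested. Nr3c1 encodes the glucocorticoid receptor, which raises gluconeogenesis when cortisol or corticosterone is high. Its level was 1.93, 5.16 and 1.32 RPKM across HuR RIP, 1.10, 0.188 and 0.00964 RPKM across IgG RIP, and 0.542 RPKM in Input. The groups did not overlap, although HuR 3 was close to IgG 1, and the IgG libraries themselves spanned a wide range. The log2 fold change of 1.83 had an SE of 0.72 and an adjusted p of 0.107. It was higher than in 84.7% of tested genes, and came to 0.72 with centred libraries. Thrb encodes the thyroid hormone receptor beta, the main thyroid hormone receptor of the liver. Its level was 1.35, 0.795 and 0.647 RPKM across HuR RIP, 0.142, 0 and 0 RPKM across IgG RIP, and 0.295 RPKM in Input. The 0 reads in IgG 2 and IgG 3 allow up to 0.0158 and 0.0146 RPKM. Thrb was thus at 124 to 256 reads in each HuR library and at 16 reads or fewer in each IgG library, and it had a log2 fold change of 1.37, with an SE of 0.49 and an adjusted p of 0.0894. Esr1 encodes the estrogen receptor alpha. Its level was 0.549, 0.0789 and 0.2995 RPKM across HuR RIP, 0.136, 0.00599 and 0.00277 RPKM across IgG RIP, and 0.0805 RPKM in Input. HuR 1 and HuR 3 were above all IgG libraries, and HuR 2, with 26 reads, was below IgG 1.

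Whether Nr3c1 and Thrb passed depended on which genes and which weights entered limma. With protein-coding genes only, Nr3c1 reached an adjusted p of 0.0472, in a fit that called 18.5% of its 3943 genes higher. With sample quality weights, its adjusted p was 0.0141, in a fit that called 41.7% of genes higher. Thrb also passed in these 2 fits, with its direction set by the filter as above. In the other alternatives for genes that tested them, neither passed.

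**Figure D2:**
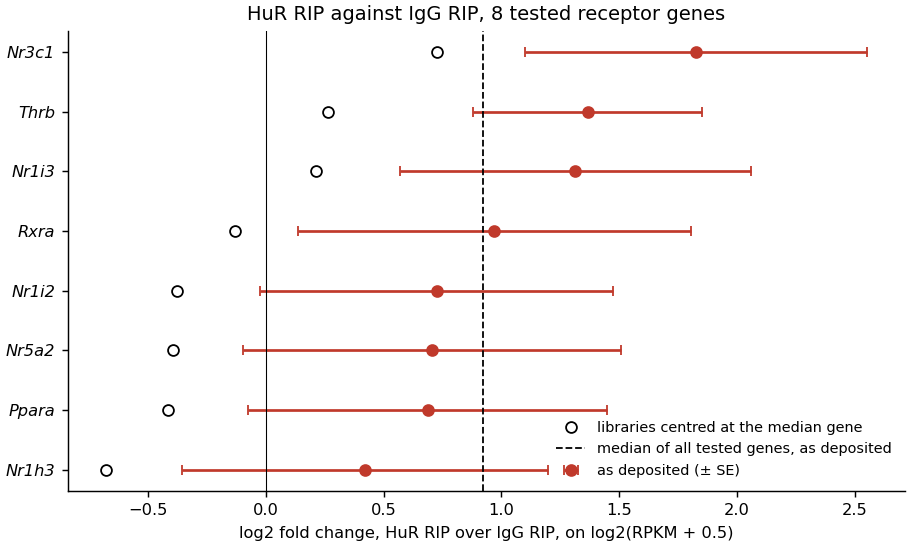
Log2 fold change of HuR RIP over IgG RIP (horizontal axis, on log2(RPKM + 0.5), bars ± SE) for the 8 tested receptors, as deposited (filled) and with each library centred at its median gene (open). The dashed line is the median of all 5510 tested genes, 0.92. After centring 3 receptors stay above 0 and 5 lie below it. Of those above 0, Thrb passed the filter only through its HuR libraries.

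Against the Input mean, which has no replicates and so no test, 8 of the 9 receptors were above it in all 3 HuR libraries, the exception being Esr1. Among all tested genes 68.9% were, and among protein-coding ones 76.1%. In IgG RIP, Nr1i3 was above the Input mean in all 3 libraries, where 20.7% of genes were, and Thrb was below it in all 3, where 6.88% of genes were. The ratio of the HuR mean to the Input mean ran from 2.41 for Nr1h3 to 9.49 for Nr5a2, and that of the IgG mean to the Input mean from 0.160 for Thrb to 5.78 for Nr5a2. The scale of the libraries differs, however. The median tested gene lay 1.47, 1.45 and 1.16 above Input on the log2 scale across HuR RIP, and 1.005, -0.04 and -0.20 from it across IgG RIP. With the libraries and Input centred at that median, Rxra alone was above Input in all 3 HuR libraries, and Nr1h3, Thrb and Esr1 were below it in all 3.

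By level per length, the order of the HuR means ran Rxra, Nr1i3, Nr3c1, Ppara, Nr5a2, Nr1i2, Nr1h3, Thrb and Esr1, between 9.52 and 0.309 RPKM. Only Rxra at the top and Esr1 at the bottom had a range that did not overlap with that of its neighbour. The order in the Input mean ran Rxra, Ppara, Nr1i2, Nr1h3, Nr3c1, Nr1i3, Thrb, Nr5a2 and Esr1. Rxra and Esr1 thus held the same ends in both, and Nr5a2 stood second to last in Input and in the middle of the 9 in HuR RIP.

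Along the genes, the reads of HuR RIP lay mostly in the last exon, which holds the 3' UTR, and this was a trait of the HuR libraries as a whole. Exon lines of a gene that overlap were merged for this. Over 3638 tested protein-coding genes of 3 or more merged exons, the median share of exon reads in the last one was 86.9%, 68.9% and 87.5% across HuR RIP, against 52.1%, 41.9% and 26.1% across IgG RIP, 42.5% in the Input mean and 38.2% of exon length. In the 6 tested receptors with reads in all 6 RIP libraries, the mean share was higher in HuR RIP in 6 of 6, as in 80.5% of genes. Every HuR library was above every IgG library in 3 of these 6, Ppara, Nr1i3 and Nr3c1, where 22.2% of genes had this. The last merged exon of Nr1i3 makes up 84.8% of its exon length. It joins several annotated exons, such as chr1:171217076-171217221 and chr1:171217626-171217731, through longer overlapping lines. Its share is therefore not that of the 3' end alone. Every HuR library was above the Input share in 6 of the 8 tested receptors, against 53.4% of genes.

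**Figure D3:**
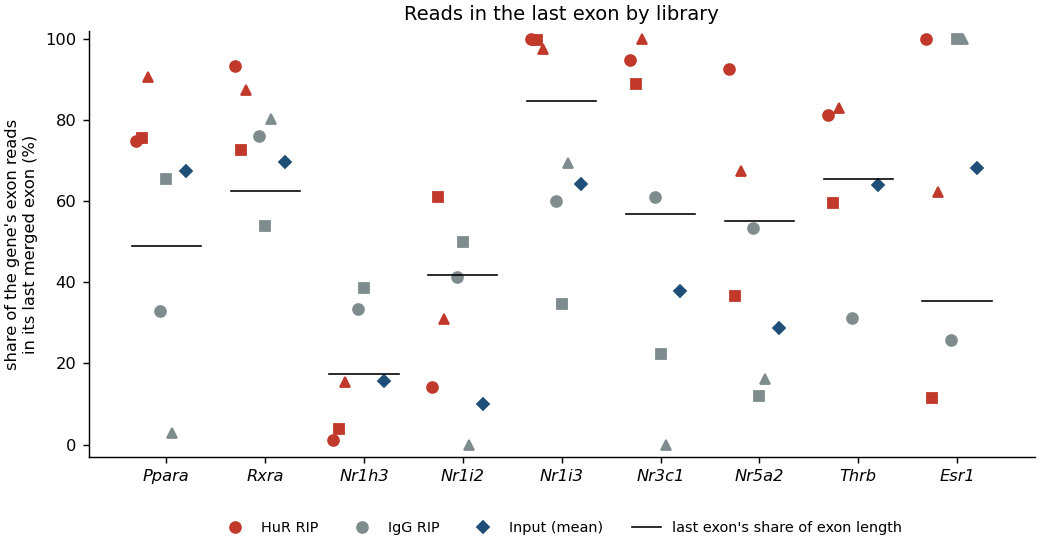
Share of each gene's exon reads in its last merged exon (vertical axis, percent) in HuR RIP, IgG RIP and the Input mean, with circles, squares and triangles for replicates 1, 2 and 3 and a line for the last exon's share of exon length. Nr3c1 lies between 89.1% and 100% in HuR RIP and between 0% and 61.1% in IgG RIP, while Nr1h3 is the only gene with a lower share in every HuR library than in each IgG library with reads. Libraries with 0 reads of a gene have no point.

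The share of Nr3c1 varied little among the HuR libraries. Its last exon (chr18:39410545-39414634) held 350, 871 and 256 reads across HuR RIP, against 77, 8 and 0 reads across IgG RIP. That was 94.9%, 89.1% and 100% of its exon reads across HuR RIP, against 61.1%, 22.3% and 0% across IgG RIP and 38.0% in the Input mean, where the exon makes up 56.8% of the length. The share in IgG 2 and IgG 3 rests on 36 and 2 reads. The last exon of Thrb (chr14:18033425-18038090), which contains the run of T printed above, held 208, 89 and 103 reads across HuR RIP, against 5, 0 and 0 reads across IgG RIP. Its share of the gene's reads in HuR RIP, 59.7% to 83.1%, was on either side of the 64.0% in the Input mean. The last exon of Rxra (chr2:27759541-27762957), whose 3' UTR has no run of T of 7 bases, held 1338, 1069 and 1089 reads across HuR RIP, against 552, 210 and 535 reads across IgG RIP. Its mean share was 84.5% ± 10.7 in HuR RIP and 70.2% ± 14.2 in IgG RIP (SD, n = 3 each).

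Other last exons varied more between libraries. Esr1 had 183, 3 and 63 reads in its last exon (chr10:5001189-5005614), in which its run of T lies, across HuR RIP, against 7, 2 and 1 reads across IgG RIP. All reads of Esr1 in HuR 1 were in that exon, and 11.5% of those in HuR 2. Nr5a2 had 637, 100 and 79 reads in its last exon (chr1:136842571-136845710) across HuR RIP, against 40, 3 and 88 reads across IgG RIP. Ppara had 93, 311 and 237 reads there (chr15:85801011-85802819) across HuR RIP, against 30, 139 and 2 reads across IgG RIP. In Nr1i2, whose last exon lies at chr16:38248323-38249389, there were 8, 147 and 23 reads across HuR RIP, against 33, 31 and 0 reads across IgG RIP.

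Nr1h3 went the other way. Its last exon (chr2:91184061-91184482) held 2, 3 and 10 reads across HuR RIP, against 34, 42 and 0 reads across IgG RIP, and its reads in HuR 1 lay mainly in exon 5 (chr2:91190185-91190947), with 168 of 175. Its 3' UTR is the shortest of the 9, at 275 bases, and holds 0 matches to either motif. Of 274 genes of like length, 10.9% had a match to TTTTTTT and 32.5% one to ATTTA. HuR 1 and IgG 1, with level gene values, therefore had their reads in different exons.

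**Figure D4:**
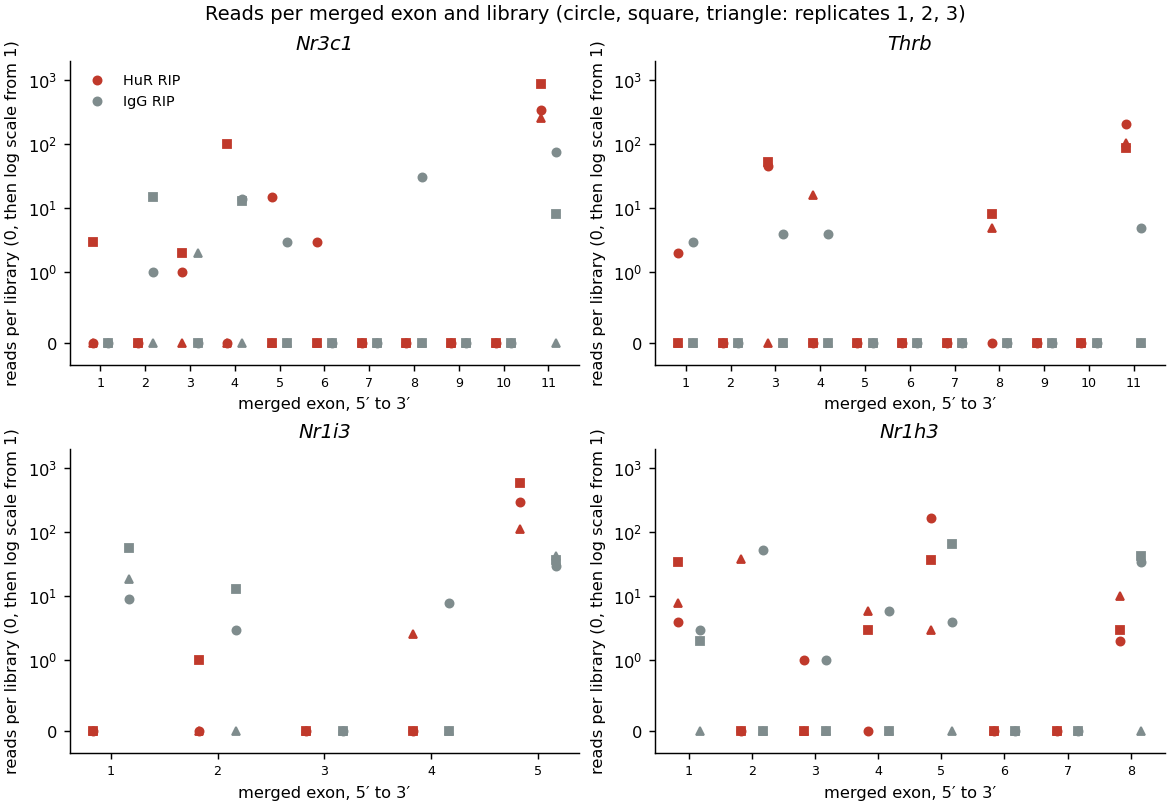
Reads in each merged exon of Nr3c1, Thrb, Nr1i3 and Nr1h3 (horizontal axis, numbered 5′ to 3′) in each HuR RIP and IgG RIP library (vertical axis, 0 and then a log scale). The last exon of Nr3c1 and of Thrb holds most HuR reads, exon 1 of Nr1i3 holds reads in the IgG libraries and 0 in the HuR libraries, and exon 5 of Nr1h3 holds 168 reads of HuR 1.

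A fit of the log2 ratio of the last exon to the rest of the gene, chosen after these shares were seen, compared HuR RIP with IgG RIP across the same 3638 genes. By limma, 5.61% of genes had a higher ratio in HuR RIP and 0.0275% a lower one, and of the 8 tested receptors 1 was called, Nr1i3. Without adjustment, 3 of the 8 and 30.1% of genes had a higher ratio, and the difference was above 0 in 6 of the 8 and in 83.3% of genes. The log2 ratio of Nr1i3 was 2.60 ± 1.15 in HuR RIP and -1.45 ± 0.83 in IgG RIP (SD, n = 3 each), a difference of 4.04 (SE 0.89, adjusted p = 0.0402). The last merged exon behind this call is the one shared with Tomm40l, and it joins several annotated exons. The rest of Nr1i3 was at 0, 0.0574 and 0.151 RPKM across HuR RIP, so the size of the difference depends on the pseudocount. It was 6.19 with a pseudocount of 0.1 and 3.01 with one of 1. The call of Nr1i3 ended without HuR 1, HuR 3, IgG 1, IgG 2 or IgG 3 (adjusted p between 0.0696 and 0.124). In each of these fits 0 genes were called, so the loss is not particular to Nr1i3. The call also ended with a pseudocount of 0.1 (adjusted p = 0.0574), in a fit with 1 gene called. With centred libraries (adjusted p = 0.259) it ended in a fit with 0 calls. The difference of 4.04 compares with a median of 1.32 over all genes. In Nr3c1 the log2 ratio was 2.36 ± 0.13 in HuR RIP and -0.15 ± 0.37 in IgG RIP (SD, n = 3 each). Its difference of 2.51 (SE 0.69, adjusted p = 0.0564) missed the threshold. It passed without HuR 2 (adjusted p = 0.0436), in a fit that called 494 of the 3638 genes higher, against 204 with all libraries. The ratios of Nr3c1 in IgG 2 and IgG 3 rest on 36 and 2 reads. The pseudocount of 0.5 draws such ratios toward 0, so that the small IgG SD is not a measured spread. Ppara followed with a difference of 2.23 (SE 0.89, adjusted p = 0.125), and Nr1h3 had the lowest, -2.09 (SE 0.96, adjusted p = 0.164), with 99.2% of genes above it. IgG 3 had 0 reads of Nr1h3, and its ratio entered this fit as 0. The ratios of Thrb in IgG 2 and IgG 3, with 0 reads each, also entered as 0.

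Single exons gave 0 calls. Of 13477 exons tested by limma, 0 were past an adjusted p of 0.05, and 20.3% were higher and 3.32% lower in HuR RIP at an unadjusted p under 0.05. Of 30 tested exon lines of the receptors, 7 were past that unadjusted level, in Rxra, Nr1i3, Nr3c1 and Thrb, and all but 1 of them were higher in HuR RIP. Of the higher lines, that of Rxra, that of Thrb and 1 of Nr1i3 (chr1:171217626-171217731) passed the filter of 0.5 RPKM only through HuR RIP. The filter set the direction of these lines, and the higher lines of Nr3c1 overlap each other almost wholly. The 1 lower was a line of exon 1 of Nr1i3, an exon at 0 ± 0 RPKM in HuR RIP, compared with 5.44 ± 4.21 RPKM for IgG (SD, n = 3 each) once its lines were merged. That exon passed the filter of 0.5 RPKM only through its 3 IgG libraries, so that the filter set its direction. With overlapping lines merged, 0 of 11470 exons passed, and of 20 tested exons of the receptors 3 were past an unadjusted p under 0.05: the last exons of Nr3c1 and Thrb, higher in HuR RIP as in 15.2% of all exons, and exon 1 of Nr1i3, lower as in 3.61%. The last exon of Thrb passed the filter only through its 3 HuR libraries, as did 7.78% of tested merged exons, and exon 1 of Nr1i3 only through its 3 IgG libraries, as did 1.89%, so the p-values of these 2 exons support no difference. The last exons of Rxra, Nr1i3, Nr3c1 and Thrb, 4 of 8 tested, had every HuR library above every IgG library, which 22.7% of merged exons of every position had. Across genes, HuR reads lay mostly in last exons, and a share for last exons alone was not computed. An excess can therefore not be read from 4 of 8. Exon 1 of Nr1i3 and exon 5 of Rxra had every HuR library below, as had 4.92%. The filter fixed the separation of the last exon of Thrb and of exon 1 of Nr1i3. In the authors' deposited table, 133 exon lines of the 9 genes had a q-value, between 0.541, the value of 92 of them, and 0.989, and over the whole table the lowest was 0.110.

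The reads also covered few of the exons. Of the 89 merged exons of the 9 genes, 24, 35 and 32 held reads across HuR RIP, against 45, 34 and 15 across IgG RIP and 66 in the Input mean. A gene value thus often rests on a handful of exons, as for Nr5a2 in IgG 3.

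**Figure D5:**
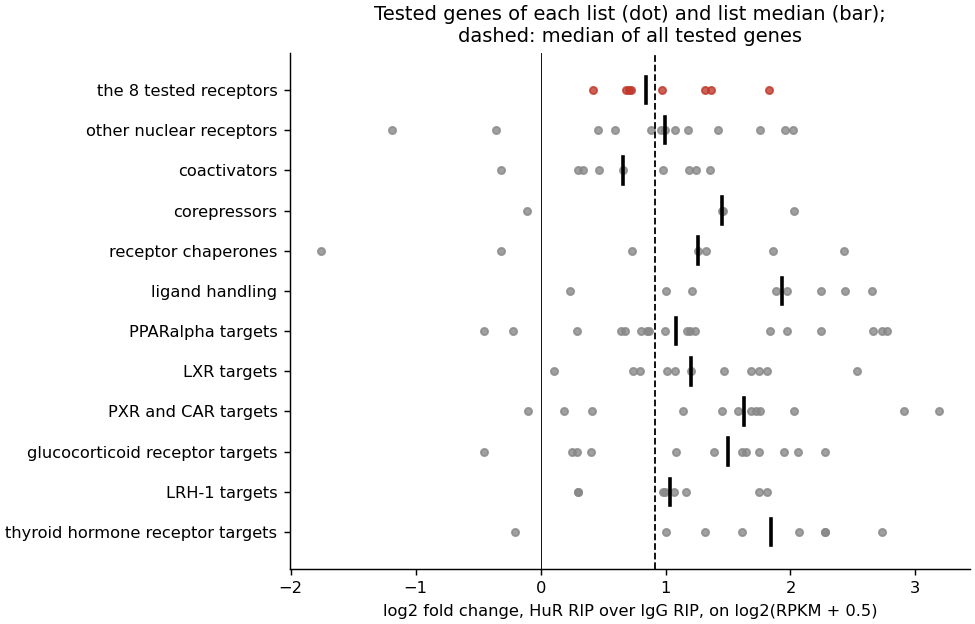
Log2 fold change of HuR RIP over IgG RIP (horizontal axis, on log2(RPKM + 0.5)) of every tested gene in each list (dots), with the list median (bar) and the median of all tested genes, 0.92 (dashed). The 8 tested receptors have a median of 0.85, and the lists of their partners and target genes have medians between 0.66 and 1.93.

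The genes that work with these receptors were examined as 11 lists, and 0 members of any list were called, against 0.672% higher and 0.127% lower over all genes. This count depended on the fit. Of the 101 list genes tested, 54 were called with sample quality weights, where 43.2% of all genes were called in either direction, and 22 with protein-coding genes only, against 18.7%. Without IgG 1, 17 of them were called, against 13.4% of all genes. With a filter of 1 RPKM, 5 of the 68 list genes left were called, against 4.8%, and TMM on RPKM called 1, lower, against 7.11%. The other 13 alternatives called 0 of them. Of 35 other nuclear receptor genes, 13 were tested and had a median log2 fold change of 0.999, with 4 higher at an unadjusted p under 0.05, a share near the 27.9% of all genes. Hnf4a, a receptor that maintains hepatocyte identity, averaged 16.8 ± 3.49 RPKM in HuR RIP, compared with 4.48 ± 3.66 RPKM for IgG (SD, n = 3 each), or 2.02 as a log2 fold change (adjusted p = 0.123). Nr1d2, a repressor of the circadian clock, stood at 1.95 on that scale (adjusted p = 0.0870). The 9 tested coactivators had a median of 0.66 and the 4 tested corepressors one of 1.45, but 2 of these 4 passed the filter only through HuR RIP. One of them was Tbl1xr1, which averaged 2.18 ± 0.932 RPKM in HuR RIP, compared with 0.129 ± 0.0912 RPKM for IgG (SD, n = 3 each). Ncor1, which holds deacetylases on unliganded receptors, stood at 1.46 in log2 fold change (adjusted p = 0.158). The 7 tested chaperones that fold steroid receptors had a median of 1.26, with Ptges3, the p23 cochaperone, at 2.43 (adjusted p = 0.0732).

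Genes that bring, make or clear the ligands had the highest list median, 1.93 over 8 tested genes, of which 4 were higher without adjustment, against 27.9% of all genes. Hsd11b1, the enzyme that regenerates active glucocorticoid, reached 2.44 in log2 fold change (adjusted p = 0.0815). Among target genes, the medians were 1.09 for 18 genes of PPARalpha, 1.21 for 11 of LXR, 1.63 for 12 of PXR and CAR, 1.499 for 12 of the glucocorticoid receptor, 1.03 for 8 of LRH-1 and 1.84 for 8 of the thyroid hormone receptor. Cyp3a11, a classical PXR target and drug-oxidizing enzyme, averaged 70.5 ± 34.9 RPKM in HuR RIP, compared with 7.36 ± 4.91 RPKM for IgG (SD, n = 3 each), or 3.19 as a log2 fold change (adjusted p = 0.0707). Cpt1a, the gate of mitochondrial fatty acid oxidation and a target of both PPARalpha and thyroid hormone, stood at 2.73 on that scale (adjusted p = 0.0659). All lists but the coactivators had a median above that of all genes, 0.92, and 8 of the 11 above that of protein-coding genes, 1.08.

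The genes most like Rxra, Nr1i3 and Nr3c1 were sought by the root mean square difference of log2(RPKM + 0.5) over the 6 RIP libraries and the Input mean, among 4295 genes. These 3 receptors had the highest HuR means, but the HuR ranges of Nr1i3, Nr3c1 and Ppara overlap, and Ppara stood second in IgG RIP and in Input. Uroc1, Aes and Retreg2 were nearest to Rxra, at 0.24, 0.29 and 0.38. Ncaph2, Trak1 and Sco2 were nearest to Nr1i3, at 0.36, 0.37 and 0.37, on gene values that cannot be assigned to Nr1i3 alone. Hsbp1, Suclg2 and Tspan9 were nearest to Nr3c1, at 0.20, 0.25 and 0.26. The measure includes the level itself, so it also picks genes of like abundance. Elavl1 itself averaged 0.748 RPKM (SD 0.385) in HuR RIP, 0.187 RPKM (SD 0.291, n = 3 each) for IgG and 0.0950 RPKM for Input. The albumin gene, Alb, averaged 439 RPKM (SD 7.39) in HuR RIP, 257 RPKM (SD 109, n = 3 each) for IgG and 412 RPKM for Input.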

How the data were processed

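RIP-seq libraries of mouse liver were compared by gene and by exon. The authors deposited 1 table of 388562 exon lines with RPKM per HuR and IgG library, a mean Input RPKM, log2 fold columns over Input, and a p-value and q-value per exon. Per the submitters' processing notes, Bowtie2 and featureCounts were used with mm10, with versions not given in the sources used here. Among deposited RPKM and log2 fold values, numbers of 1 or more had lost the decimal mark. It was restored from the digits, checked against the 6 fold columns to within 2e-05, and all 138826 distinct lines of values matched (3 with more than 1 reading, taken at the smallest error). Column names were followed for HuR 2 and HuR 3, which the fold columns exchange.

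Reads over overlapping lines were shared out between them, so line values times length were summed per gene and divided by the merged exon length. Library sizes came from the step between values. limma 3.58.1 (R 4.3.3, trend and robust) was run on log2(RPKM + 0.5) for genes at 0.5 RPKM or more in at least 3 of 6 libraries, two-sided, Benjamini-Hochberg adjusted at 0.05, and tested on simulated data. A count model was not used, since reads were split, and a test of Input was not possible with 1 mean. A fold change on this scale understates the change of low genes.

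Named were the 9 receptors whatever their values, up to 3 genes per list by smallest p, last exons, the nearest genes, Elavl1 and Alb; other exons, Tomm40l and the sex-linked genes were named after their values were seen. The receptors and lists were chosen with earlier results of these data known. GENCODE M21 gave positions, classes and 3' UTRs. Alternatives were other scalings, filters, pseudocounts, weights, a replicate block and leaving out each library. Reads are not independent molecules, so depths and limits cover counting error only.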

Additional observations from a re-analysis of the deposited data

How the results depend on the processing

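Of 142 alternative values for the 8 tested receptors, 15 turned from positive to negative: in Ppara -0.42 with centred libraries, -0.58 with TMM on RPKM and -0.43 with quantile normalization; in Rxra -0.13 and -0.53 with the first 2 of these; in Nr1h3 -0.68, -0.46 and -0.67, and -0.38 without IgG 3 (0.95 without IgG 1); in Nr1i2 -0.38, -0.15 and -0.46; in Nr5a2 -0.40, -0.41 and -0.16. Nr3c1, Thrb and Nr1i3 kept their direction in each alternative. The filter had set that of Thrb, and the Nr1i3 values cannot be assigned to Nr1i3 alone. The counts of genes called higher and lower, 37 and 7, became 3 and 1 with a pseudocount of 1, 145 and 21 with a filter of 1 RPKM, 1 and 18 centred, 5 and 4 after quantile normalization, 0 and 0 without a filter and without trend, and 2296 and 84 with sample quality weights. TMM on RPKM called 342 lower and protein-coding genes alone 728 higher. Leaving out single libraries gave 0 to 724 higher (0 without IgG 2, 724 without IgG 1) and 0 to 35 lower. The cause was not tested. Single exons gave 1 lower call when centred and 0 otherwise, and merged exons, a unit chosen after seeing the data, gave 0 in each alternative.

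The replicate number as a block gave 0 genes higher and 0 lower, and the same with HuR 2 and 3 exchanged, a pairing chosen after seeing the data. Same-numbered libraries deviated together with correlations of 0.138, 0.117 and 0.0860, so that the numbers were not taken to pair the samples, although each library correlated best with its own number.

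The last exon against the rest of the gene, 204 higher and 1 lower, gave 1 and 0 with a pseudocount of 0.1, 0 and 0 centred, 3 lower with the exchanged block, 0 to 494 higher (494 without HuR 2, 0 without each other library) and 0 to 2 lower. Its difference reversed to -0.24 in Rxra and -0.89 in Thrb when centred, and to 0.24 in Nr1i2 without HuR 1 (-0.82 without HuR 2). The last exon of Nr1i2 itself reversed to -0.67 when centred, -0.31 without HuR 2 and -0.13 without IgG 3, against up to 1.13 without single libraries.

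Against Input, centring left 1 receptor above and 3 below in all HuR libraries, and 0 above and 3 below in all IgG libraries. Mean log2 differences of HuR RIP reversed to -0.23 in Ppara, -0.58 in Nr1h3, -0.54 in Thrb and -0.92 in Esr1. That of Nr1i2 also turned negative, but had been smaller than its SD before centring, so it was not counted as reversed. Leaving out IgG libraries gave 1 to 4 above and 1 to 3 below. Depth limits Esr1 and the IgG values of Nr3c1 and Thrb, which rest on few reads.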
